A study of Mus musculus with 9 samples.

Results

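Genes of the cell cycle were followed in normal colonic mucosa on 9 single-colour arrays. The set holds 40 genes chosen by name, 13 that act at the G1/S transition and in DNA replication and 27 that act in G2 and mitosis. They were chosen with earlier results of these data known. A gene was measured through the probes whose RefSeq accession in the array's annotation maps to its symbol. This matched 38 of the 40 genes, 12 of G1/S and 26 of G2/M, out of 15346 named genes among 21964 features. Prc1 and Rrm2 were not matched. All 38 matched genes passed the filter on dim probes, so no matched member was lost there.

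The RNA came from ICR mice, an outbred stock. Every mouse received 1,2-dimethylhydrazine (DMH), a carcinogen used to raise colon tumors in mice, under the skin at 20 mg/kg once a week for 20 weeks, so all groups share it and mucosa without DMH was not analysed here. The DMH group (3 arrays) drank plain water. The other 6 arrays came from mice whose water held 1.5% butyrate. For 3 of these arrays the mice had no tumors and for 3 they had, and all arrays carry RNA of normal mucosa and not of tumor. Samples were grouped by title, description and source name, which agree among themselves. A separate tumor status field gives the opposite tumor status for all 6 butyrate samples, and by that field each result given here for one butyrate group is that of the group opposite. Whether arrays of a group stand for separate animals is not in the labels, so p-values measure only the spread between these samples.

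Cells copy their DNA once and divide once per cycle, and different proteins run each step. At G1/S, cyclin E with its kinase promotes the programme of E2F transcription factors. That programme turns on the MCM helicase, the PCNA clamp and the enzymes of nucleotide synthesis. In G2 and mitosis, FOXM1, B-MYB and the MuvB complex turn on CDK1, its cyclins, the spindle checkpoint and the motors that part the chromosomes. In the colon these genes are active in dividing cells of the lower crypt, and butyrate, a histone deacetylase inhibitor, is known to slow the division of cultured colon cancer cells.

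The split into G1/S and G2/M genes is visible in the promoters, which were read from RefSeq (GRCm38.p6) for 33 members, from 250 bases before to 50 after the start of transcription. Ccna2, Ccne2, Mcm4, Aurkb, Foxm1, Kif20a and Tpx2 were not matched there. The CHR element, through which MuvB binds mitotic genes, was searched as TTTGAA and also as TTCGAA, the CCAAT box of the factor NF-Y as CCAAT, and the E2F core as TTCCCGC, as well as TTGGCGC and also TTCGCGC, each on both strands. An E2F core read on the other strand can share letters with a CCAAT box. CHR letters stood in 20 of 24 promoter windows of G2/M members (83.3%) and 2 of 12 windows of G1/S members (16.7%), against 19.2% of all 32851 windows. E2F cores stood in 6 of 12 G1/S windows (50%) and 6 of 24 G2/M windows (25.0%), against 8.07% of all. CCAAT letters were frequent in both classes, in 9 of 12 windows (75%) and 22 of 24 (91.7%), against 37.4%. These matches describe the letters only and were not tested.

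The 150 bases before the start are shown for 7 members, with matches to any of the 3 motifs in capitals. Cdk1, Top2a and Ube2c are G2/M genes that fell in mucosa without tumors and Cdc20 is one that was not called, and all 4 carry CHR and CCAAT letters in the stretch. Mcm2 is the G1/S gene with the largest fall and Mcm6 and Rrm1 are not called, and the latter pair carry E2F cores while the Mcm2 stretch holds CHR letters alone. The stretches lie at chr10:69352913-69353062 (Cdk1, minus strand), chr11:99024190-99024339 (Top2a, minus), chr2:164769779-164769928 (Ube2c, plus) and chr4:118437344-118437493 (Cdc20, minus). Those of the G1/S genes lie at chr6:88898781-88898930 (Mcm2, minus), chr1:128359706-128359855 (Mcm6, minus) and chr7:102441545-102441694 (Rrm1, plus).
Cdk1: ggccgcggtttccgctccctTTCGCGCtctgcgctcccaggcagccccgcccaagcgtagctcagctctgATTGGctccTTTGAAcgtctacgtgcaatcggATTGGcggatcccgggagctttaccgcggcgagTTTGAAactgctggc
Top2a: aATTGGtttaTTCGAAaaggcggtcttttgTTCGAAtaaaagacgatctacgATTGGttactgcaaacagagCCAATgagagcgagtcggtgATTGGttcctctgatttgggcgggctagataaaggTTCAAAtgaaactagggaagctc
Ube2c: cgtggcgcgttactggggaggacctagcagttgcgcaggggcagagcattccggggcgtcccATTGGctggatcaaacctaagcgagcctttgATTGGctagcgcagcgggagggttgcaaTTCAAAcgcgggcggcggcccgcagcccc
Cdc20: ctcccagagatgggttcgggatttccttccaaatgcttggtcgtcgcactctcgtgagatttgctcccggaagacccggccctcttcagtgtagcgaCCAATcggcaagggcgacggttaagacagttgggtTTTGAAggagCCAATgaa
Mcm2: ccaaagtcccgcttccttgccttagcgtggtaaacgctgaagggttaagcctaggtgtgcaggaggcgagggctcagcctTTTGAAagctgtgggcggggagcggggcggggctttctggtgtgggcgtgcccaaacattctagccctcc
Mcm6: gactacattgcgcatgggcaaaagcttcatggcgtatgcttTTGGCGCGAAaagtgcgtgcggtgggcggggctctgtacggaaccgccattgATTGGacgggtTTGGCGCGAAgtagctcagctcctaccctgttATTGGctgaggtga
Rrm1: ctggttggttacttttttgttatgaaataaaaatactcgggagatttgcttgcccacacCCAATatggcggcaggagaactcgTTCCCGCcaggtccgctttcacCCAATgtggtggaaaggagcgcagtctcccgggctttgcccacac

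**Figure D1:**
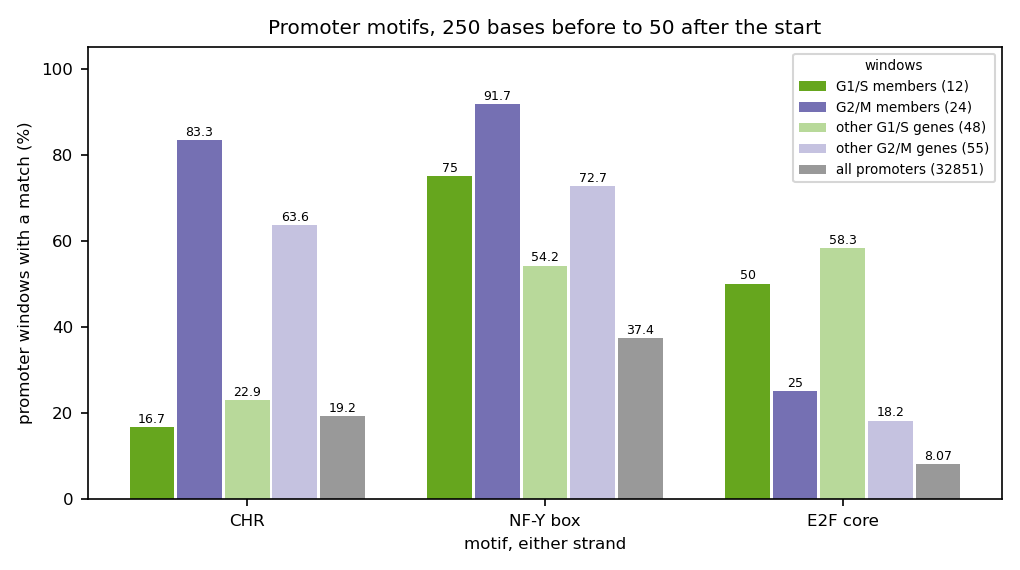
Share of promoter windows (%, vertical axis) that hold each motif on either strand, by gene class; the legend gives the number of windows. CHR letters stand in 83.3% of the windows of G2/M members and 16.7% of those of G1/S members, and E2F cores in 25.0% and 50%; the NF-Y box is the CCAAT box of the text.

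Values are the log2 signal of the brightest probe of a gene minus the 75th percentile of its array, so that 0 is the level of that percentile. Levels are compared for 1 probe across arrays, never between genes. The arrays differ in more than their group. Slide 1 held all 3 arrays without tumors and the first of those with tumors, and there the signal at the 75th percentile was 188 to 444, against 739.8 to 879.8 on the other slides. Arrays 2 and 3 with tumors shared slide 2, DMH array 1 lay on slide 3 and DMH arrays 2 and 3 on slide 4. The DMH arrays were scanned on another day, so a comparison with DMH is also one between slides and scan days, and these cannot be told apart from the treatment. The DMH arrays also lay closest together, with a median SD per gene of 0.04 for G1/S and 0.07 for G2/M members, against 0.36 and 0.36 without tumors and 0.32 and 0.26 with tumors.

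Mucosa without tumors after butyrate was set against DMH alone to ask which cell cycle genes differ with butyrate where no tumor formed. Of 38 members 10 were lower, against 13.8% of all features, and 1 was higher, against 16.6% (limma, Benjamini-Hochberg adjusted p under 0.05 over all features). In either direction 30.5% of all features were called. The 10 were the helicase subunits Mcm2 and Mcm3 of G1/S and Foxm1, Cdk1, Ube2c, Bub1b, Tpx2, Nusap1, Kif23 and Top2a of G2/M, and their falls ran from 1.65-fold for Nusap1 to 3.37-fold for Mcm2. The 1 higher was the checkpoint kinase gene Bub1. The median log2 change was -0.07 over the G1/S members and -0.26 over the G2/M members, against 0.08 over all features. All 3 arrays without tumors lay under all 3 DMH arrays for 16 members and above them for 5, against 27.2% and 32.8% of all features.

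The count of 10 rests on the DMH arrays. Without DMH array 1 it was 3 (7.89%, against 8.32% of all features), and without array 2 or array 3 it was 2 (5.26%, against 6.16% and 6.5%), so that the members' share was no longer above that of all features, with Foxm1 and Cdk1 called each time. With slide as a random block it was 0, against 2.33% of all features (Foxm1 at -0.96 with adjusted p = 0.0683, Cdk1 at -1.09 with adjusted p = 0.126). With DMH arrays 2 and 3 averaged into 1 sample it was 2 (Foxm1 and Cdk1), where 1395 of 21964 features were lower. That check was chosen after seeing the data. The difference between DMH arrays 2 and 3 had an SD of 0.095 on the log2 scale, over 173 probes with at least 8 spots. The scatter between spots alone gave 0.055. For the other pairs of arrays within a group the SD was 0.31 to 1.20. Whether DMH arrays 2 and 3 stand for separate mice is not in the labels.

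Mucosa with tumors after butyrate, set against the same DMH arrays, held no member that fell. By limma 0 of 38 members were lower at an adjusted p under 0.05, against 2.26% of all features, 1 was higher, against 3.44% (5.7% in either direction). An unadjusted p under 0.05 was found for 6 of 38 members (15.8%), a smaller share than the 29.9% of all features. The 1 higher was again Bub1. The median log2 change was 0.02 over the G1/S members and -0.05 over the G2/M members, against 0.08 over all features. The 3 arrays with tumors lay under all DMH arrays for 10 members and above them for 7, against 19.5% and 23.1%. The call of Bub1 was lost when any 1 of array 2 or 3 without tumors, array 1 or 3 with tumors or DMH array 2 or 3 was left out.

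Between the butyrate groups, Mcm2 was the 1 member lower without tumors, against 6.99% of all features, and 0 members were higher, against 6.56% (limma, 13.5% in either direction). At an unadjusted p under 0.05 stood 10 of 38 members (26.3%), against 34.6% of all features. Of 38 members 33 had a negative difference, 25 of them among the 26 of G2/M, and among all 21964 features 11157 had one. The median difference was -0.19 over the G1/S members and -0.28 over the G2/M members, against -0.01 over all features. The arrays without tumors lay under all arrays with tumors for 11 members, against 16.8%, and above them for 0, against 16.6%. The DMH arrays entered this fit through the shared estimate of the spread. With them left out of the fit, 0 of all 21964 features were called, so Mcm2 was not called either.

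On slide 1, which held both butyrate groups, all 3 arrays without tumors lay under array 1 with tumors for 27 of 37 members (73.0%), against 34.8% of 21887 features, and above it for 1 (2.7%), against 32.4%. That array stood apart in lymphocyte markers: the median of 8 T cell genes lay 3.09 above the DMH mean on the log2 scale and that of 8 B and plasma cell genes 2.47, while the other butyrate arrays lay between -0.21 and 1.20 and between -0.77 and 0.82. Its medians were also the lowest of the 6 butyrate arrays for crypt base markers, at -1.35 against -0.84 to -0.06, and for goblet markers, at -2.71 against -2.10 to -0.85. The part of these markers in the result was not tested. With slide as a fixed block, which leaves this contrast to slide 1, the median difference was -0.50 for G1/S and -0.41 for G2/M members and Mcm2 was not called.

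All 6 butyrate arrays against DMH, with tumor status set aside, is the comparison of the design text. Bub1 was the 1 member higher (log2 change 1.43 ± 0.27 SE, limma adjusted p = 0.0263), against 5.85% of all features. By limma 0 of 38 members were lower, against 3.35% (9.2% in either direction), and 8 of 38 (21.1%) had an unadjusted p under 0.05, against 31.2% of all features. The median log2 change was 0.01 over the G1/S members and -0.14 over the G2/M members, against 0.08 over all features. All 6 butyrate arrays lay under all DMH arrays for 8 members and above them for 4, against 11.9% and 14.5%. The closest to a call among the lower ones were Ube2c (-0.65 ± 0.19, adjusted p = 0.0611) and Foxm1 (-0.77 ± 0.23, adjusted p = 0.0625), which with Cdk1 were called when the butyrate groups were fitted apart or array 3 with tumors was left out. The call of Bub1 was lost without DMH array 2 or DMH array 3.

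**Figure D2:**
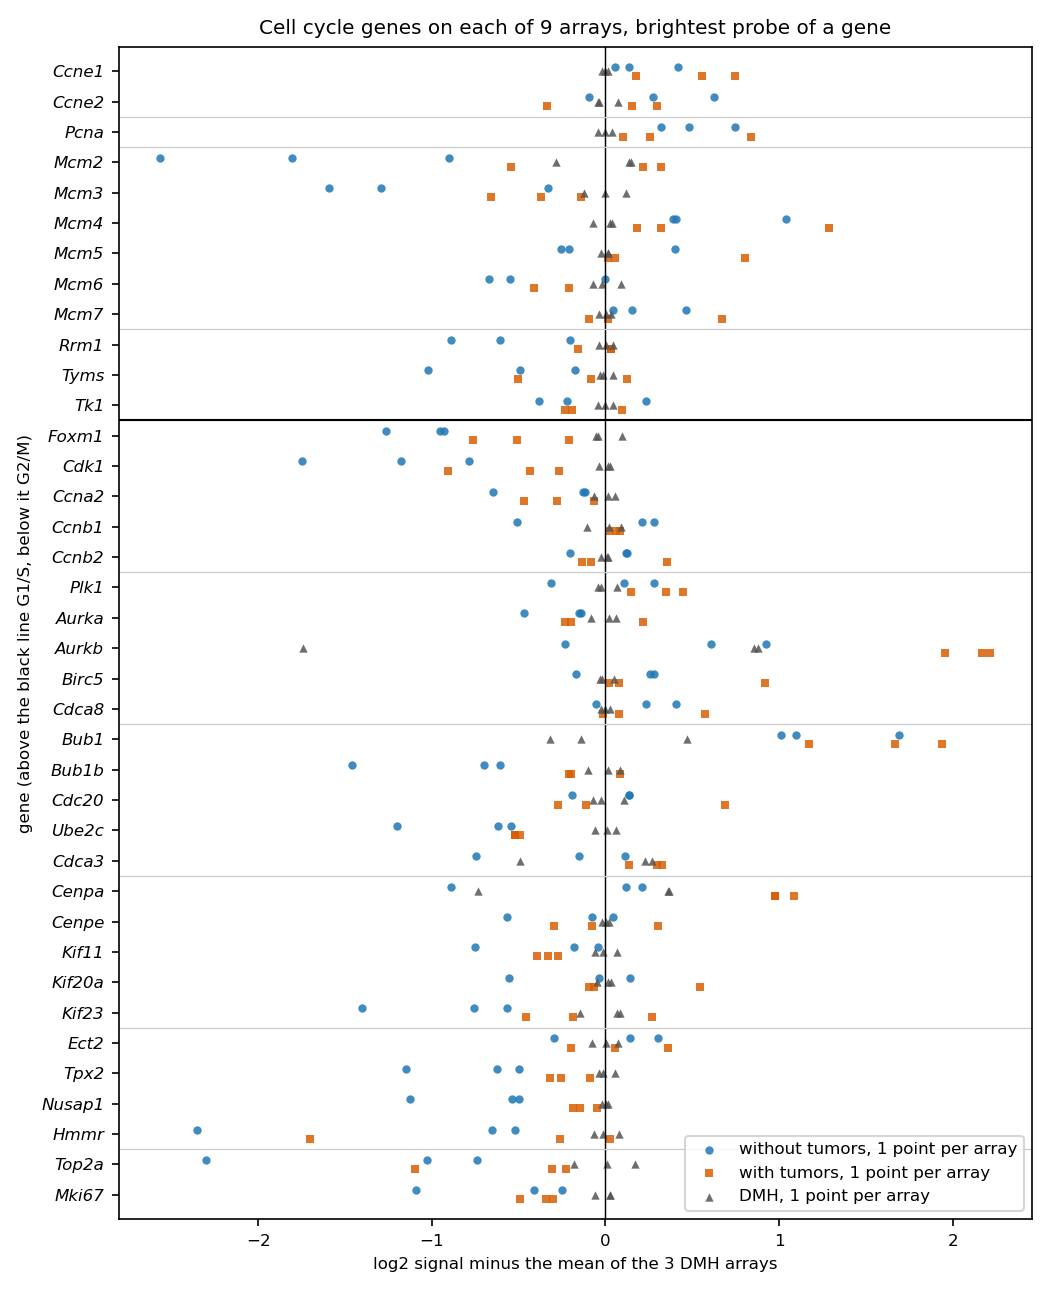
Log2 signal of each of 38 genes on each array minus the mean of the 3 DMH arrays (horizontal axis), 1 point per array, G1/S genes above the black line and G2/M genes below it; grey lines part the roles. The DMH arrays lie close to 0 for most genes, the 3 arrays without tumors lie under all DMH arrays for 16 genes, and array 1 without tumors is often the leftmost point.

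Among the G1/S genes, neither cyclin E gene was called in any comparison with its brightest probe. Ccne1, which encodes the cyclin that drives entry into S phase, lay at 0.75, 0.83 and 1.11 without tumors, at 1.44, 0.87 and 1.25 with tumors and at 0.69, 0.71 and 0.67 with DMH alone. All 6 butyrate arrays were above all DMH arrays, with a log2 change of 0.35 ± 0.19 over the 6 arrays (adjusted p = 0.238), 0.20 ± 0.19 without tumors (adjusted p = 0.423) and 0.50 ± 0.19 with tumors (adjusted p = 0.123). The other probe of Ccne1 changed by -0.36 without tumors (limma adjusted p = 0.167) and by 0.40 with tumors (adjusted p = 0.19). Ccne2, the close relative of Ccne1, overlapped between the groups, with -3.29 to -2.57, -3.53 to -2.90 and -3.24 to -3.12. Pcna, the sliding clamp of the replication polymerases, lay at 4.42, 4.26 and 4.69, at 4.78, 4.20 and 4.04 and at 3.98, 3.90 and 3.94. It too was above the DMH arrays on all 6 butyrate arrays and was not called (without tumors 0.52 ± 0.22, adjusted p = 0.102; with tumors 0.40 ± 0.22, adjusted p = 0.253; all butyrate 0.46 ± 0.20, adjusted p = 0.151).

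The MCM helicase unwinds DNA as a ring of 6 subunits, and 2 of their genes fell without tumors. Mcm2 lay at -1.86, -1.10 and -0.20 without tumors, at 0.16, 0.92 and 1.02 with tumors and at 0.42, 0.84 and 0.85 with DMH alone. The arrays without tumors were the lowest 3 of the 9, and the arrays with tumors overlapped DMH. The fall was 1.75 ± 0.41 on the log2 scale against DMH (adjusted p = 0.0164) and the same against mucosa with tumors (adjusted p = 0.0327), while with tumors against DMH the adjusted p was 0.999 and over all 6 butyrate arrays the change was -0.88 ± 0.60 (adjusted p = 0.342). Mcm3 lay at -1.17, -0.87 and 0.09 without tumors, at 0.28, -0.24 and 0.05 with tumors and at 0.54, 0.30 and 0.42 with DMH alone, and its log2 change without tumors was -1.07 ± 0.31 (adjusted p = 0.0338).

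The other 4 subunits were not called in any comparison. Mcm4 was above all DMH arrays (2.15 to 2.26) on all butyrate arrays (2.40 to 3.51), with a log2 change of 0.61 ± 0.31 without tumors (adjusted p = 0.162). Mcm5 and Mcm7 changed by -0.02 and 0.22 without tumors, and Mcm6, which has no value on array 1 with tumors because the scanner marked its spot as an outlier, by -0.40. For Mcm2 the call against mucosa with tumors held in 11 of 23 alternatives and against DMH in 18 of 22. With slide as a fixed block the difference between the butyrate groups was -1.22 (adjusted p = 0.299).

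No gene of nucleotide synthesis was called with its brightest probe. Rrm1, the large subunit of ribonucleotide reductase, lay at 1.49, 1.77 and 2.17 without tumors, at 2.41, 2.22 and 2.41 with tumors and at 2.42, 2.38 and 2.34 with DMH alone. The 3 arrays without tumors were under all 6 others, with a log2 change of -0.57 ± 0.19 against DMH (adjusted p = 0.0537) and -0.54 ± 0.19 against mucosa with tumors (adjusted p = 0.09). Tyms, thymidylate synthase, changed by -0.56 without tumors (adjusted p = 0.113), and Tk1, thymidine kinase, by -0.12 (adjusted p = 0.653). Rrm2 has an accession on 1 probe only in the older annotation that the DMH files carry. That probe lay at -0.39, -0.18 and 0.57 without tumors, at 1.16, 0.62 and 0.76 with tumors and at 0.51, 0.55 and 0.54 with DMH alone, and it is left out of every count.

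Among CDK1 and its regulators, Foxm1 and Cdk1 fell without tumors. Foxm1, the transcription factor of the mitotic programme, lay at -0.77, -0.46 and -0.44 without tumors, at -0.27, -0.02 and 0.28 with tumors and at 0.59, 0.44 and 0.45 with DMH alone. The 3 groups did not overlap and stood in that order. Its log2 change was -1.05 ± 0.19 without tumors (adjusted p = 0.00653), -0.50 ± 0.19 with tumors (adjusted p = 0.121) and -0.55 ± 0.19 between the butyrate groups (adjusted p = 0.0791). Cdk1, the kinase that starts mitosis, lay at -1.58, -1.01 and -0.62, at -0.74, -0.27 and -0.10 and at 0.13, 0.18 and 0.19. Every butyrate array was under every DMH array, with a log2 change of -1.24 ± 0.26 without tumors (adjusted p = 0.012), -0.54 ± 0.26 with tumors (adjusted p = 0.21), -0.89 ± 0.30 over all 6 (adjusted p = 0.0866) and -0.70 ± 0.26 between the butyrate groups (adjusted p = 0.104).

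The cyclin partners of CDK1 were not called with their brightest probes. Ccnb1 lay at -0.74, -0.02 and 0.05 without tumors, at -0.15, -0.21 and -0.17 with tumors and at -0.34, -0.21 and -0.14 with DMH alone. Array 1 without tumors was the lowest and the groups overlapped, with log2 changes of -0.01 ± 0.22 (adjusted p = 0.982) without and 0.05 ± 0.22 (adjusted p = 0.893) with tumors. Ccnb2 changed by 0.01 and 0.05, and Ccna2, the cyclin of S phase and G2, by -0.30 and -0.27, none of them called.

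Of the mitotic kinases and the passenger complex, which corrects the attachment of chromosomes, no gene was called with its brightest probe. Plk1, Aurka, Birc5 and Cdca8 changed by 0.02, -0.25, 0.12 and 0.20 without tumors and by 0.31, -0.07, 0.34 and 0.21 with tumors. Aurkb lay at -3.45, -2.61 and -2.29 without tumors, at -1.0, -1.26 and -1.05 with tumors and at -4.96, -2.34 and -2.36 with DMH alone, and it was not well above background on DMH array 1. Its arrays with tumors were the highest 3 of the 9, with a log2 change of 2.11 ± 0.66 from DMH (adjusted p = 0.0836).

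In the spindle checkpoint and the anaphase-promoting complex, Bub1b and Ube2c fell without tumors, and Bub1 rose by its brightest probe while its other probe changed by -0.72 (adjusted p = 0.0685). With the brightest probe Bub1, a checkpoint kinase, lay at 1.75, 1.07 and 1.16 without tumors, at 2.00, 1.23 and 1.73 with tumors and at 0.53, -0.08 and -0.26 with DMH alone. All butyrate arrays were above all DMH arrays, with log2 changes of 1.27 ± 0.30 without tumors (adjusted p = 0.0164) and 1.59 ± 0.30 with tumors (adjusted p = 0.0341). Bub1b, its partner in the checkpoint, lay at -1.96, -1.20 and -1.11, at -0.70, -0.71 and -0.42 and at -0.60, -0.49 and -0.42, and its log2 change without tumors was -0.92 ± 0.24 (adjusted p = 0.0219). Ube2c, the ubiquitin-conjugating enzyme of the anaphase-promoting complex, lay at 1.62, 2.20 and 2.28, at 2.30, 2.30 and 2.33 and at 2.88, 2.76 and 2.83.

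For Ube2c the butyrate groups lay side by side under the DMH arrays, with a log2 change of -0.79 ± 0.19 without tumors (adjusted p = 0.0185) and -0.51 ± 0.19 with tumors (adjusted p = 0.122). Cdc20, the activator of the same complex, changed by 0.03 and 0.10, and Cdca3 by -0.26 and 0.25, neither called with its brightest probe.

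Among genes of the centromere and the kinesin motors, Kif23, a motor of cytokinesis, was the 1 that fell by its brightest probe. It lay at -1.38, -0.73 and -0.54 without tumors, at -0.43, -0.16 and 0.29 with tumors and at -0.12, 0.11 and 0.09 with DMH alone, a log2 change of -0.91 ± 0.27 without tumors (adjusted p = 0.034). Kif11, the motor that separates the spindle poles, changed by -0.33 in both butyrate groups, and Kif20a and Cenpe by -0.15 and -0.20 without tumors. Cenpa, the histone of the centromere, lay at -2.57, -1.47 and -1.56, at -0.70, -0.70 and -0.59 and at -2.41, -1.31 and -1.32. As for Aurkb, its 3 arrays with tumors were the highest of the 9 and DMH array 1 lay far under the other DMH arrays, with a log2 change of 1.01 ± 0.37 with tumors (adjusted p = 0.117).

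Of the spindle assembly genes, Tpx2, which activates Aurora A on the spindle, lay at -0.34, 0.18 and 0.31 without tumors, at 0.72, 0.49 and 0.55 with tumors and at 0.86, 0.77 and 0.79 with DMH alone. Nusap1, a microtubule-bundling protein, lay at -0.52, 0.07 and 0.11, at 0.56, 0.42 and 0.46 and at 0.61, 0.59 and 0.62. In both genes the 3 groups did not overlap, and mucosa with tumors lay just under DMH. The log2 changes without tumors were -0.76 ± 0.19 for Tpx2 (adjusted p = 0.0219) and -0.72 ± 0.19 for Nusap1 (adjusted p = 0.0242). Ect2, which triggers the cytokinetic furrow, changed by 0.04. Hmmr was not well above background on array 1 without and array 1 with tumors and changed by -1.18 ± 0.57 without tumors (adjusted p = 0.142).

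Chromosome structure was represented by 2 genes that are common markers of dividing cells. Top2a, the topoisomerase that untangles chromosomes, lay at -2.61, -1.34 and -1.05 without tumors, at -1.41, -0.62 and -0.54 with tumors and at -0.49, -0.30 and -0.14 with DMH alone. Every butyrate array was under every DMH array, and the log2 change was -1.35 ± 0.41 without tumors (adjusted p = 0.0369), -0.55 ± 0.41 with tumors (adjusted p = 0.39) and -0.95 ± 0.41 over all 6 (adjusted p = 0.149). Mki67, the Ki-67 antigen, lay at 2.42, 3.10 and 3.26, at 3.17, 3.21 and 3.02 and at 3.54, 3.45 and 3.54. It too was under the DMH arrays on all 6 butyrate arrays, with log2 changes of -0.58 ± 0.22 (adjusted p = 0.077), -0.38 ± 0.22 (adjusted p = 0.281) and -0.48 ± 0.21 over all 6 (adjusted p = 0.148), none of them called.

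**Figure D3:**
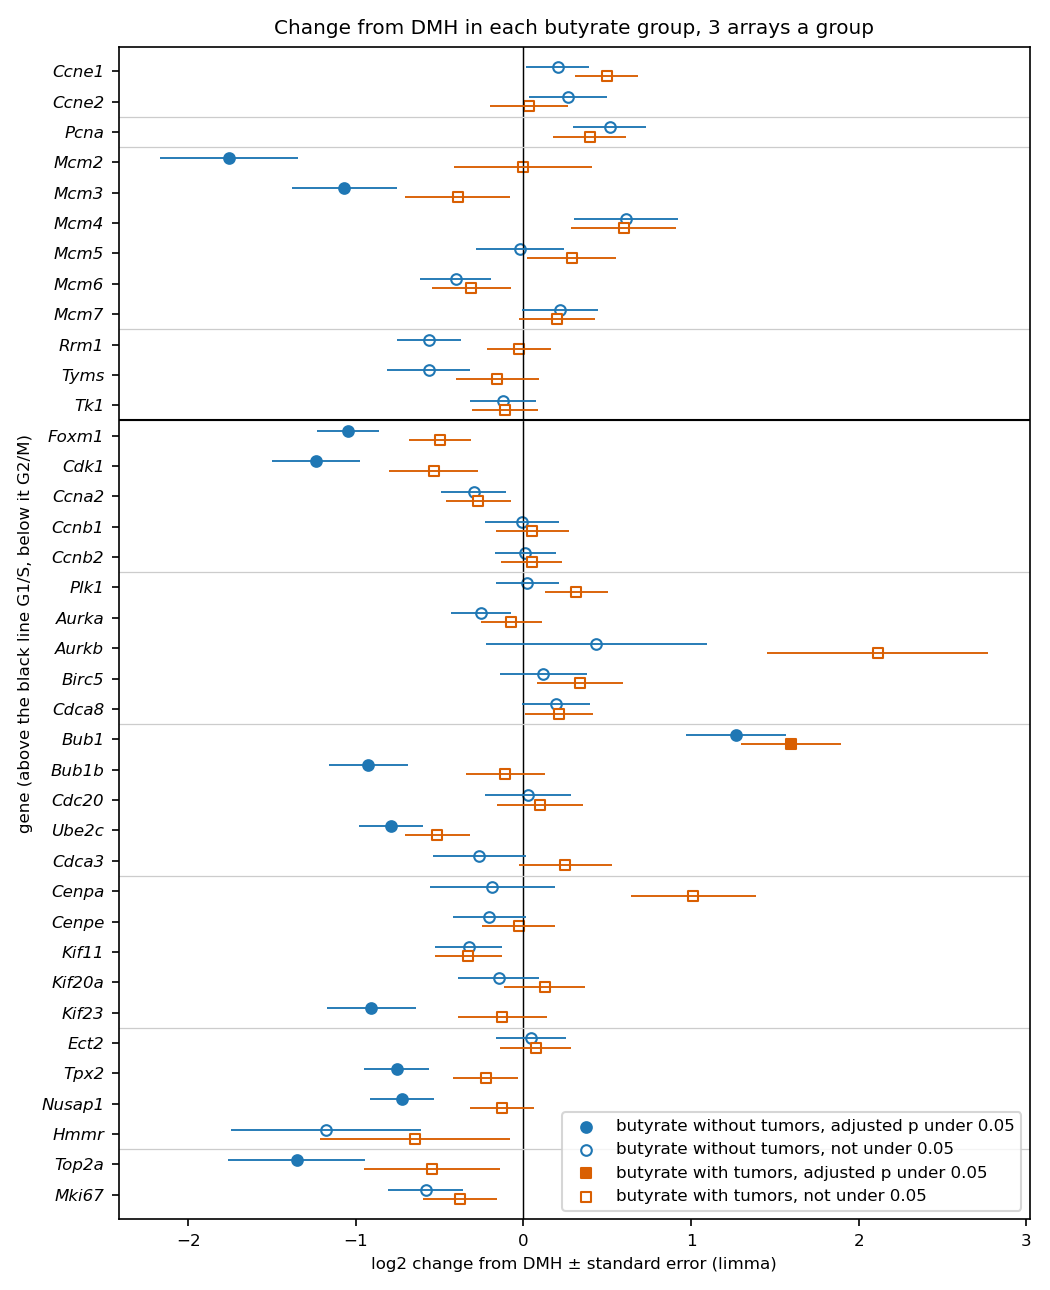
Log2 change from DMH with its standard error (horizontal axis) for each of 38 genes, circles for butyrate without tumors and squares for butyrate with tumors, filled where the limma adjusted p is under 0.05. Filled circles mark 10 falls and the rise of Bub1, which holds the 1 filled square.

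Genes with more than 1 probe gave different changes by probe. Of the 38 members, 12 had 2 or 3 probes that passed the filter, and the probes of 11 of them carry the same accession, while those of Bub1 carry different ones. Without tumors against DMH, all 13 other probes had a more negative change than the brightest probe of their gene, against 63.4% of 6557 other probes of all genes, and 9 of the 13 were called lower (69.2%), against 17.8% of the other probes of all genes. Counting a gene as lower when any of its probes was, 17 of 38 members were lower without tumors, against 19.8% of all named genes. By this count 0 were lower with tumors (3.58% of all named genes), 3 between the butyrate groups (8.07%) and 2 for all butyrate (5.49%).

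Cyclin B1 shows the size of this. Its other probes lay at -1.65, -0.97 and -0.96 and at -1.74, -0.98 and -0.93 without tumors, against 0.64, 0.52 and 0.59 and -0.50, -0.43 and -0.28 with DMH alone. They changed by -1.78 ± 0.30 (adjusted p = 0.00605) and -0.81 ± 0.25 (adjusted p = 0.0403), where the brightest probe of Ccnb1 changed by -0.01. The other probe of Mki67 changed by -1.69 ± 0.39 (adjusted p = 0.0162), that of Cdca3 by -1.49 ± 0.25 (adjusted p = 0.00583), that of Cenpe by -1.67 ± 0.27 (adjusted p = 0.00538) and that of Cdca8, which was well above background on 7 of the 9 arrays, by -2.62 ± 0.50 (adjusted p = 0.00836). The other probe of Tyms changed by -1.36 (adjusted p = 0.0346). Between the butyrate groups the other probes of Ccne1 and Cenpe were lower without tumors, by -0.76 (adjusted p = 0.0371) and -1.35 (adjusted p = 0.0234), and for all butyrate the other probe of Cdca3 was lower (adjusted p = 0.0388).

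The other Bub1 probe went the other way from the brightest. It lay at -0.86, -0.03 and 0.23 without tumors, at 0.36, 0.53 and 0.50 with tumors and at 0.46, 0.51 and 0.54 with DMH alone, a log2 change of -0.72 ± 0.26 without tumors (adjusted p = 0.0685) and -0.04 ± 0.26 with tumors (adjusted p = 0.934). The rise of Bub1 in every comparison with DMH is that of 1 of its 2 probes. Without tumors the probes of Ccne1, Ccne2, Cdca8 and Ect2 also differed in sign. Their brightest probes changed by 0.20, 0.27, 0.20 and 0.04, and their other probes by -0.36, -0.21, -2.62 and -1.14. For Hmmr the other probe was well above background on all 3 DMH arrays and on 0 arrays without tumors. As a bound, it was at least 3.05-fold lower without tumors. The limma change of -2.98 (adjusted p = 0.0476) rests on values of -7.26, -6.07 and -6.97 without tumors, none well above background. That p is not a test of the bound, and the size of the change is uncertain. DMH array 1 lay at -5.07, against -3.5 and -2.81 on the other DMH arrays. This call is among the other probes counted as lower above.

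**Figure D4:**
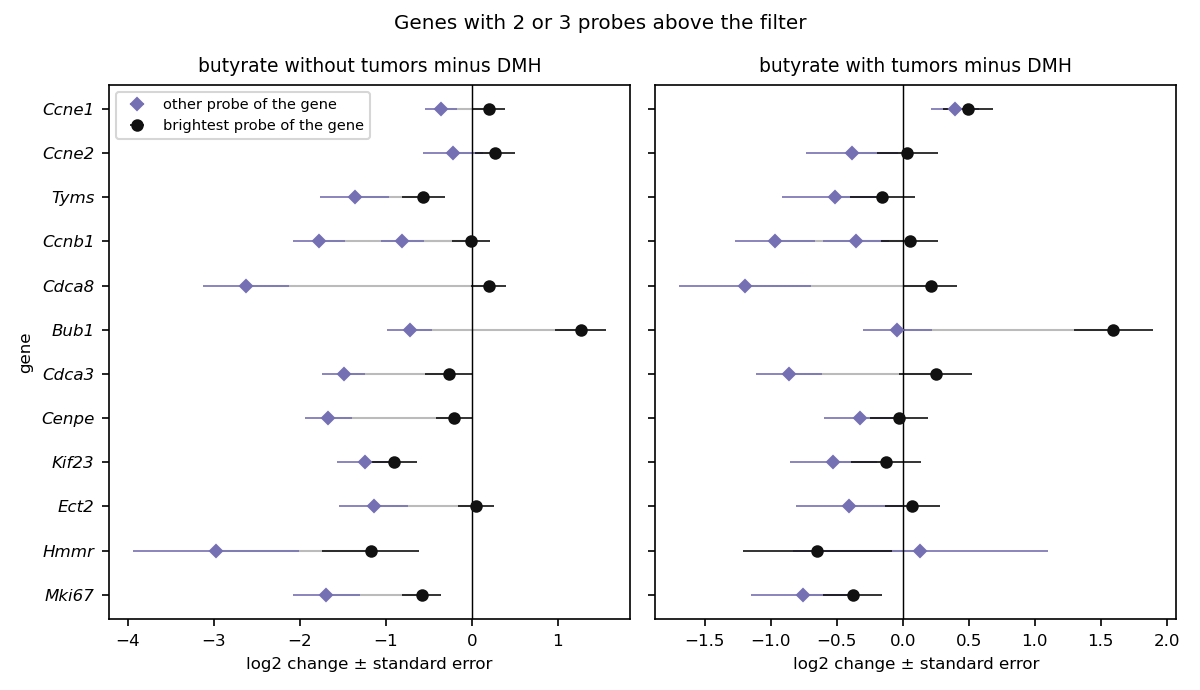
Log2 change from DMH with its standard error (horizontal axis) for the 12 genes with 2 or 3 probes that passed the filter, black circles for the brightest probe and diamonds for the others, without tumors on the left and with tumors on the right. On the left all 13 diamonds lie to the left of their circle. For Ccne1, Ccne2, Cdca8, Bub1 and Ect2 circle and diamond lie on opposite sides of 0 there.

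The low values without tumors were not shared evenly by the 3 arrays. Array 1 without tumors was the lowest of all 9 for 29 of the 37 members with 9 values, 23 of 26 in G2/M and 6 of 11 in G1/S. Relative to the DMH mean, the median over the G2/M members was -0.69 on array 1, -0.13 on array 2 and -0.06 on array 3 without tumors, and between -0.13 and 0.02 on the arrays with tumors. Over the G1/S members these medians were -0.32, -0.21 and 0.32 without tumors and 0.02 to 0.10 with tumors. Without array 1 the count of members lower than DMH was 7, where 2140 of 21964 features were lower. Mcm2, Foxm1, Cdk1, Bub1b, Ube2c, Tpx2 and Nusap1 remained. Array 1 with tumors was the highest of all 9 for 15 of the 37. The ranks of the arrays were not counted over all features, so a trait of the array cannot be told apart from one of the members.

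Other genes of the pathway also fell without tumors. The wider lists were chosen with earlier results of these data known, so their counts are not an independent check of the members. Of 56 measured genes of a wider G2/M list 30 were lower and 1 was higher, and of 44 genes of a wider G1/S list 12 were lower and 1 was higher, with median log2 changes of -0.93 and -0.42, where 13.8% of all features were lower and 16.6% higher. With tumors 0 and 2 were lower, against 2.26% of all features. Between the butyrate groups 8 and 4 were lower, against 6.99%, and for all butyrate 3 and 1, against 3.35%. In each of these comparisons 0 were higher, against 3.44%, 6.56% and 5.85%. With slide as a random block the 30 and 12 without tumors were 2 and 1, against 2.33% of all features. Without DMH array 2 they were 11 and 3, against 6.16%. With the DMH arrays left out of the fit, the 8 and 4 between the butyrate groups were 0 and 0, where 0 of all features were called.

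The genes named here have the smallest adjusted p of each list. Kif2c, a kinesin that takes microtubules apart, lay at -4.48, -3.72 and -3.37 without tumors, at -2.67, -1.64 and -1.27 with tumors and at -1.16, -1.07 and -1.02 with DMH alone. Its log2 change was -2.78 ± 0.39 (adjusted p = 0.00307) against DMH and -2.0 ± 0.39 (adjusted p = 0.0215) against mucosa with tumors. Cenpm of the centromere changed by -1.96 ± 0.28 (adjusted p = 0.00324) and Mybl2, which encodes B-MYB, by -1.05 ± 0.17 (adjusted p = 0.00482). Of the G1/S list, Orc2 of the origin recognition complex changed by -1.0 ± 0.15 (adjusted p = 0.00408), Rpa2, which coats single-stranded DNA, by -1.13 ± 0.21 (adjusted p = 0.00771) and the maintenance methyltransferase Dnmt1 by -0.84 ± 0.19 (adjusted p = 0.0141). Orc2 and Rpa2 were also lower without than with tumors, by -0.77 ± 0.15 (adjusted p = 0.0221) and -0.99 ± 0.21 (adjusted p = 0.0254). The genes that rose were the checkpoint kinase Chek1 (0.97 ± 0.27, adjusted p = 0.0275) and Cenpk of the centromere (0.69 ± 0.17, adjusted p = 0.0197).

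In the other comparisons the named genes were fewer. With tumors the 2 that fell were Cdk6 (-1.60 ± 0.31, adjusted p = 0.0354) and Ccnd2 (-1.11 ± 0.22, adjusted p = 0.0368), a kinase and a cyclin of early G1. Ccnd2 also fell for all butyrate (-0.88 ± 0.23, adjusted p = 0.0487), with Ccnf (-1.29 ± 0.28, adjusted p = 0.0317), Cenpm (-1.44 ± 0.38, adjusted p = 0.0477) and Cdc25c (-1.05 ± 0.28, adjusted p = 0.0494), the phosphatase that activates CDK1. Ttk, Ckap2 and Pola1 were lower without than with tumors, by -2.34 ± 0.51 (adjusted p = 0.0269), -1.33 ± 0.29 (adjusted p = 0.0281) and -1.17 ± 0.28 (adjusted p = 0.0349). Some of these values lie in the background: Ttk was well above it on 1 of 3 arrays without tumors, Cdk6 on 2 of 3 with tumors and Cdc25c on 2 of 3 in each butyrate group, so the sizes of their changes are uncertain.

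**Figure D5:**
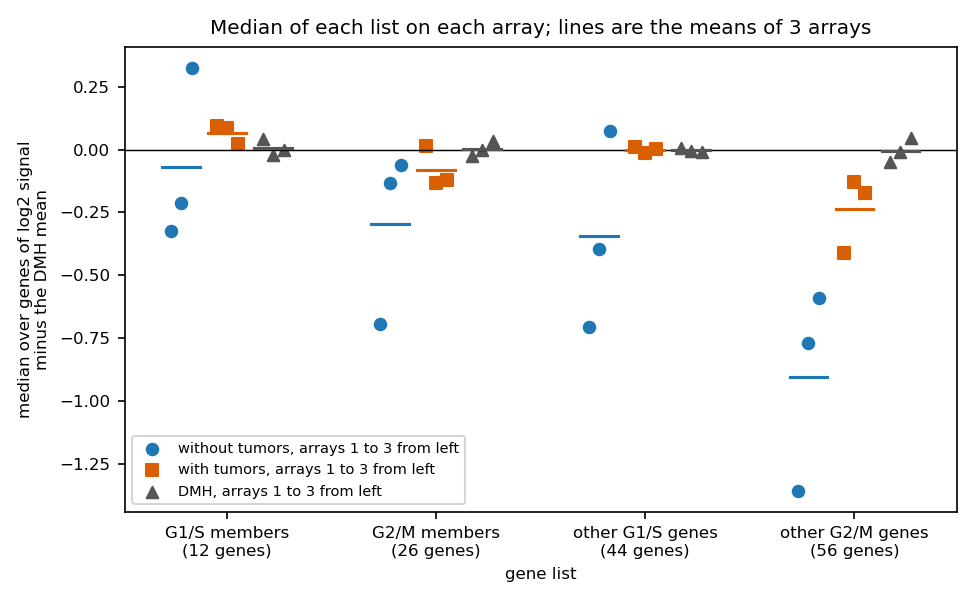
Median over the genes of each list of the log2 signal minus the DMH mean (vertical axis), 1 point per array with arrays 1 to 3 of a group from left to right, and lines for the mean of the 3. Array 1 without tumors is the lowest in all 4 lists, from -0.32 for the G1/S members to -1.36 for the wider G2/M list.

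Levels of cell type markers differed between the same arrays, and in bulk tissue fewer cells of a type and less RNA per cell cannot be told apart. Without tumors 13.8% of all features were lower than with DMH and 16.6% were higher, and marker counts are to be read against these shares. Markers of the epithelium were present in all groups, and 5 of 9 were lower without tumors than with DMH, with summed levels of 416 to 591 against 902 to 1041 (376 to 699 with tumors). Of 8 goblet cell markers 5 were lower (452 to 608 against 1451 to 1589), and of 11 crypt base markers 3 were lower (14.1 to 19.9 against 31.9 to 33.5). Surface colonocyte markers went the other way, with 3 of 8 higher and 1 lower and a median log2 change of 0.40. Their summed levels overlapped DMH (612 to 972 against 673 to 783). Sums are of signal in units of the 75th percentile of the array.

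Of 9 smooth muscle markers 6 were higher without tumors (401 to 889 against 231 to 396), and of 10 markers of enteric neurons and glia 5 were higher (7.33 to 14.0 against 3.43 to 4.34). All 5 measured of 8 listed neutrophil markers were lower (0.126 to 0.327 against 3.65 to 3.95), as were 3 of 8 macrophage markers and 2 of 8 of B and plasma cells. A neutrophil marker could pass the filter of 3 arrays through the DMH arrays alone. Whether these 5 were well above background without tumors is not given here, so the size of their fall is uncertain. Of germinal centre B cells, a dividing cell type, 2 of 6 markers were lower, and of endothelium 2 of 7 were higher. Of the T cell list 1 of 8 was lower, of the fibroblast list 1 of 8 was higher and of the adipocyte list 0 of 6 were called, with 1 at an unadjusted p under 0.05. A count of 1 of 8 (12.5%) is no more than the share of all features. With tumors 3 epithelial, 5 goblet and 3 of 6 adipocyte markers were lower, against 2.26% of all features. So was 1 marker each of the surface colonocyte, neutrophil and B and plasma cell lists. By limma 0 of the smooth muscle or neuron markers were called higher, against 3.44%. An unadjusted p under 0.05 was found for 7 and 6 of them, and for 6573 of 21964 features. The part of these markers in the changes of the cell cycle genes was not tested.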

How the data were processed

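Total RNA of normal colonic mucosa was read on 9 single-colour (Cy3) Agilent arrays. Spot intensity values were deposited as the scanner software Agilent Feature Extraction 10.5.1.1 gave them, background-corrected per the file headers. The authors also deposited a table of log2 values for 21829 probes, which by comparison with the scanner values is log2 of the same processed signal minus a constant per array (column medians 2.71 to 3.20), and which served as an alternative. How that constant was chosen is not given in the sources used here.

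Here, log2 of the processed signal minus the 75th percentile of each array was used, without control spots and spots marked as outliers. A probe was kept if well above background on at least 3 of 9 arrays with at least 2 values per group, and a gene was represented by its brightest probe. Where the accession of a probe differed between files (4725 probes), the newer annotation was used for all arrays. Differences were tested with limma 3.58.1 (lmFit and eBayes, R 4.3.3, statmod 1.5.0) over 21964 features with Benjamini-Hochberg adjustment and a threshold of 0.05. The fit of all butyrate against DMH held 2 groups, and 1 fit of 3 groups gave the rest. The fit was tested on simulated data. Tables were made with pandas 2.3.3 and numpy 2.4.6 under Python 3.11.15, and plots with matplotlib 3.10.9. The number of arrays limits the precision.

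A bound for a probe not well above background sets the mean of the bright group against the lowest well-measured signal of the dim arrays. Full statistics were given for called members and for Mki67, Pcna, Mcm2, Cdk1, Ccnb1, Top2a, Ccne1 and Foxm1, and of the wider lists the 3 called genes with the smallest adjusted p in each direction were named. The members and lists were chosen with earlier results of these data known. The comparisons with DMH share the same 3 DMH arrays. Alternatives changed the scaling, background correction, filter, probe rule, slide and replicate blocks and the samples in the fit.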

Additional observations from a re-analysis of the deposited data

Results flagged for a closer look

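Within the 6 butyrate arrays, 1 array stood apart from the others in 3 of 38 members tested, and it was array 1 without tumors each time. Ccnb1 lay at -0.74 there and the nearest other array at -0.21, Ube2c at 1.62 against 2.20, and Mki67 at 2.42 against 3.02. Chance marks about 1 in 20 such groups, and the 3 marks share 1 array, so they are not independent of each other.

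The change of Mcm2 from DMH differed between the butyrate groups by -1.75 on the log2 scale (limma adjusted p = 0.0327), being lower without tumors in 3 of 3 arrays. The DMH mean cancels here, so this is the difference between the butyrate groups given above and not a further result. Its call held in 11 of 23 alternatives.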

How the results depend on the processing

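Counts below are of 38 members called lower or higher (35 with the authors' values and 36 with the filter on all 9 arrays), and medians are log2 changes over G1/S and G2/M members. Counts of all features are of 21964 unless given. For all butyrate against DMH the higher count of 1 was 0 with no scaling, with the mean of a gene's probes, with slide as a random block, with the DMH arrays of slide 4 averaged and with the dimmest probe. In this order 0, 1082, 8, 0 and 1037 of all features were higher, against 1285 in the main fit. The lower count of 0 was 2 with normexp, 1 with the authors' values and 2 with probes well above background on all 9 arrays. It was 3 with the butyrate groups fitted apart, 1 without the 4 arrays of slide 1 and 1 with the dimmest probe. Of all features 880, 728 (of 17085), 865 (of 17159), 2170, 1255 and 727 were lower, against 735 in the main fit. The medians of 0.01 and -0.14 were -0.84 and -0.99 with no scaling and -0.21 and -0.50 with the dimmest probe, and that of G2/M was -0.46 with the mean of probes.

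Without tumors against DMH the lower count of 10 was 1 with no scaling, 6 with no filter, 0 with the random slide block, 2 with slide 4 averaged and 17 with the dimmest probe. In this order 1545, 2354 (of 32588), 511, 1395 and 3274 of all features were lower, against 3038 in the main fit. The higher count of 1 was 0 with no scaling, the mean of probes, the random block, slide 4 averaged and the dimmest probe. It was 2 with the arrays with tumors left out of the fit. Of all features 5, 3108, 495, 1512, 3056 and 5274 were higher, against 3656 in the main fit. The medians of -0.07 and -0.26 were -1.15 and -1.34 with no scaling and -0.29 and -0.77 with the dimmest probe, and that of G2/M was -0.74 with the mean of probes.

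With tumors against DMH the higher count of 1 was 2 with normexp. It was 0 with no scaling, no filter, the random block, the arrays without tumors left out, slide 4 averaged and the dimmest probe. In this order 453, 1, 139 (of 32588), 1, 159, 1 and 660 of all features were higher, against 756 in the main fit. The lower count of 0 was 1 with the authors' values, where 1542 of 17085 features were lower, against 496 of 21964 in the main fit. The medians of 0.02 and -0.05 were -0.50 and -0.66 with no scaling. With the dimmest probe Bub1 changed by -0.38 for all butyrate, by -0.72 without tumors and by -0.04 with tumors, opposite to its brightest probe.

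Between the butyrate groups the lower count of 1 was 4 with normexp, 2 with the stricter filter and 2 with the mean of probes. It was 4 with the replicate block and 3 with the dimmest probe. It was 0 with no scaling, no filter, the fixed or random slide block, the DMH arrays left out and slide 4 averaged. Of all features 1027, 1163 (of 17159), 1511, 1609 and 1501 were lower in the first 5 of these settings, against 1536 in the main fit. In the others 1, 930 (of 32588), 263, 1220, 0 and 665 were lower. The medians of -0.19 and -0.28 were -0.77 and -0.75 with no scaling. That of G1/S was -0.50 with the fixed slide block, and that of G2/M was 0.02 with the authors' values, -0.54 with the mean of probes and -0.61 with the dimmest probe. No scaling moved the median of all features to -0.76, -1.0, -0.53 and -0.48 in the 4 comparisons in this order, and the authors' values to 0.08, 0.25, -0.11 and 0.36. The causes were not tested.

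Leaving out 1 array at a time gave lower counts of 0 to 3, 2 to 13, 0 to 0 and 0 to 5 and higher counts of 0 to 1, 0 to 3, 0 to 1 and 0 to 0. Of all features 4 to 1499, 1353 to 4581, 3 to 722 and 111 to 4129 were then lower. Those higher numbered 1 to 2127, 1487 to 5360, 1 to 1070 and 66 to 3645. G1/S medians ran from -0.08 to 0.07, -0.27 to 0.06, -0.04 to 0.07 and -0.35 to -0.07, and G2/M medians from -0.22 to -0.06, -0.40 to -0.07, -0.11 to 0.03 and -0.41 to -0.07. The single call between the butyrate groups was lost without array 1 or 2 without tumors, 2 or 3 with tumors or 2 or 3 of DMH, and the count was 5 without array 1 with tumors. Replicate numbers do not pair the arrays (correlations of same-numbered arrays from -0.01 to 0.26), and with the replicate block the lower and higher counts were 0 and 1, 10 and 1, 0 and 1 and 4 and 0. All features lower and higher with that block numbered 124 and 461, 3108 and 3758, 126 and 351 and 1609 and 1200. The dimmest probe, the averaged slide 4 arrays and the left-out slide 1 were chosen after seeing the data. The lower signal on slide 1 limits the faintest genes.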
